A study of Mus musculus with 12 samples.

Results

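The neuronal cytoskeleton was examined through 10 genes of the 55901 in the expression table, taken by name: the neurofilament genes Nefl, Nefm, Nefh and Ina, the tubulin genes Tubb3 and Tuba1a, the microtubule-associated protein genes Map2, Mapt and Map1b, and the stathmin gene Stmn2. The rule that took them used names and no measured value, but the list was chosen with earlier results of these data known. All 10 passed the filter on low values. The libraries came from cortical neurons of newborn C57BL/6J mice with no engineered allele in the labels, cultured for 7 days before injury, with arabinosylcytosine given early to hold back dividing glia. Control cultures (4 libraries) were left unscratched, Trauma cultures (4 libraries) were scratched with a needle and harvested 24 h later, and Trauma+TGF-β1 cultures (4 libraries, Tra_TGF in the labels) were scratched in the same way and kept for 24 h with TGF-β1 at 10 ng/mL; they are also called the treated cultures. A scratched well holds both cut and untouched cells, and no group received TGF-β1 without a scratch. Nothing in the labels says that the 4 libraries of a group came from separate litters or cultures, so p-values measure the spread between these libraries only, which may be technical.

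Axons and dendrites are held in shape by neurofilaments and microtubules. Neurofilaments are built from light, medium and heavy chains together with α-internexin, and set the calibre of axons. Microtubules grow from dimers of α- and β-tubulin and carry transport, and proteins such as MAP2 in dendrites, tau in axons and MAP1B in growing axons bind along them and steady them. Stathmins bind free tubulin and promote the shortening of microtubules. Because these proteins are made in neurons and leak from injured axons, several of them serve as markers of neuronal identity or of axonal damage.

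Members of the tubulin family differ in how well short reads can tell them apart, which bears on every tubulin value here. Over the 1356 coding bases, Tuba1a and Tuba1b differed at 23 positions (98.3% identity), and over 1350 coding bases Tuba1a and Tuba1c differed at 38 (97.2% identity). Of the 1654 windows of 150 bases (the read length) along the Tuba1a transcript, 905 (54.7%) also occurred letter for letter in a transcript of another gene, among them 279 in Tuba1b and 444 in Tuba1c, so part of the Tuba1a reads could be assigned to more than one gene.

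Tubb3 stood differently. None of its 1719 windows of 150 bases occurred in another gene, and its coding sequence was between 82.1% (Tubb5) and 86.2% (Tubb6) identical to the other β-tubulins compared. The 90 coding bases of Tubb3 within 1 exon in which Tubb2b differs most (coding bases 76 to 165, exon 2 of each gene, GRCm38) show how far the β-tubulins differ, with the bases that differ from Tubb3 in capitals. The stretch is on the plus strand at chr8:123418111-123418200 in Tubb3, and on the minus strand at chr13:34129247-34129336 in Tubb2b and at chr17:35836629-35836718 in Tubb5.
Tubb3: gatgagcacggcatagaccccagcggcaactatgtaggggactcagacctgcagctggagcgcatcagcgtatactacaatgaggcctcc
Tubb2b: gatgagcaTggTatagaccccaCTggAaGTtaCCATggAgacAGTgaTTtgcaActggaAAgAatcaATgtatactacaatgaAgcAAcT
Tubb5: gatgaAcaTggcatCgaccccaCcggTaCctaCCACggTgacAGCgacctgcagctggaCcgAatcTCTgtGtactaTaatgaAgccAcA
Tubb2b differed from Tubb3 at 27 of these 90 bases and Tubb5 at 24. No 150-base window was shared with another gene by Nefh, Map2, Mapt, Map1b or Stmn2 either. Nefl and Nefm overlap on opposite strands over 1108 bases (chr14:68083863-68084970), which is 32.8% of the exonic bases of Nefl and 19.2% of those of Nefm, and Ina overlaps Nt5c2 on the opposite strand over 456 bases. Tuba1a shares 473 exonic bases with Gm49450 on its own strand. The strand setting of the counting was not stated and the library kit does not mark strand, so reads from these stretches could not be told apart.

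The depth was 15052486 to 17381671 reads on genes per library, and the members collected between 349 (Nefh) and 67215 (Tuba1a) reads in a library. All 12 pan-neuronal marker genes (among them Rbfox3, Snap25 and Syt1) were expressed above 0.5 FPKM on average. Their summed level was 1242 to 1313 FPKM in Control, 1148 to 1219.8 in Trauma and 1126 to 1196 in the treated cultures. Markers of glia and other cells were also present, with higher sums in both scratched groups. The astrocyte list (10 genes) summed to 213 to 241 FPKM in Control, 271 to 333 in Trauma and 286 to 306 in the treated cultures, the oligodendrocyte lineage list to 49.3 to 52.6, 62.1 to 69.2 and 61.1 to 67.4, the microglia list to 21.0 to 25.0, 31.5 to 40.2 and 25.5 to 29.6, and the vascular and fibroblast list to 4.23 to 4.82, 7.16 to 8.92 and 10.2 to 12.6. No gene of the 5 lists was at 0 in every library, while 5 of 10 microglia, 6 of 10 vascular and fibroblast, 3 of 10 oligodendrocyte lineage and 1 of 10 astrocyte markers averaged below 0.5 FPKM. Of the 4 vascular and fibroblast genes tested, only Acta2 was called. It was higher after scratch (1.63 on the log2 scale) and in the treated cultures against Trauma (0.64) and against Control (2.27). At an unadjusted p under 0.05, 3, 1 and 3 of these 4 genes were higher. In whole cultures, fewer neurons and less RNA per neuron cannot be told apart. The part of the glial shifts in the members' differences was not tested. With every library scaled to the pan-neuronal markers, an alternative chosen after seeing the data, the members past the threshold were Tuba1a (lower) and Nefl (higher) in Trauma against Control, Tubb3, Mapt (lower), Map2 and Map1b (higher) between the scratched groups, and Tubb3 (lower), Map2 and Nefl (higher) for the treated cultures against Control, where the values reported below have 4, 4 and 6 members. The library Control 1 stood apart from the other 3 Control libraries on the leading principal components, and leaving it out changed the call of no member in any comparison.

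Levels are given as FPKM, mapped fragments scaled to the length of all annotated exons of the gene and to the depth of the library. That length was 16449 bases for Map2, 7531 for Mapt and 5602 for Stmn2. Their transcripts with the longest coding sequence had 6258, 2250 and 2073 bases. For Tubb3 (1868 bases) and Tuba1a (1803 bases) both lengths were equal. The order of the genes by FPKM thus depends on the length used. Tuba1a, an α-tubulin of young neurons, was the highest of the 10, with a mean of 2212 ± 129 FPKM (SD, n = 4) in Control, 1715 ± 111 in Trauma and 1885 ± 83.1 in the treated cultures. Tubb3, the β-tubulin used to mark neurons, came next with 959.7 ± 31.4, 842 ± 28.4 and 739 ± 24.6 FPKM. By mean level they stood at percentiles 99.97 and 99.93 of the genes tested. Stmn2, Mapt and Map1b followed, between 157 and 286 FPKM in group means, and then Map2 and Ina, between 92.8 and 119 FPKM. The lowest were the neurofilament chains Nefl (26.6 to 29.1 FPKM), Nefm (14.1 to 16.7) and Nefh (5.85 to 7.38). The order was the same in the 3 groups except for Ina and Map2: Ina stood above Map2 in Control by less than their spread, below it in Trauma again with overlapping ranges, and clearly below it in Trauma+TGF-β1. Mapt and Map1b overlapped in Control and in Trauma+TGF-β1, and were apart in Trauma. Every other pair of neighbours was apart in each group.

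**Figure D1:**
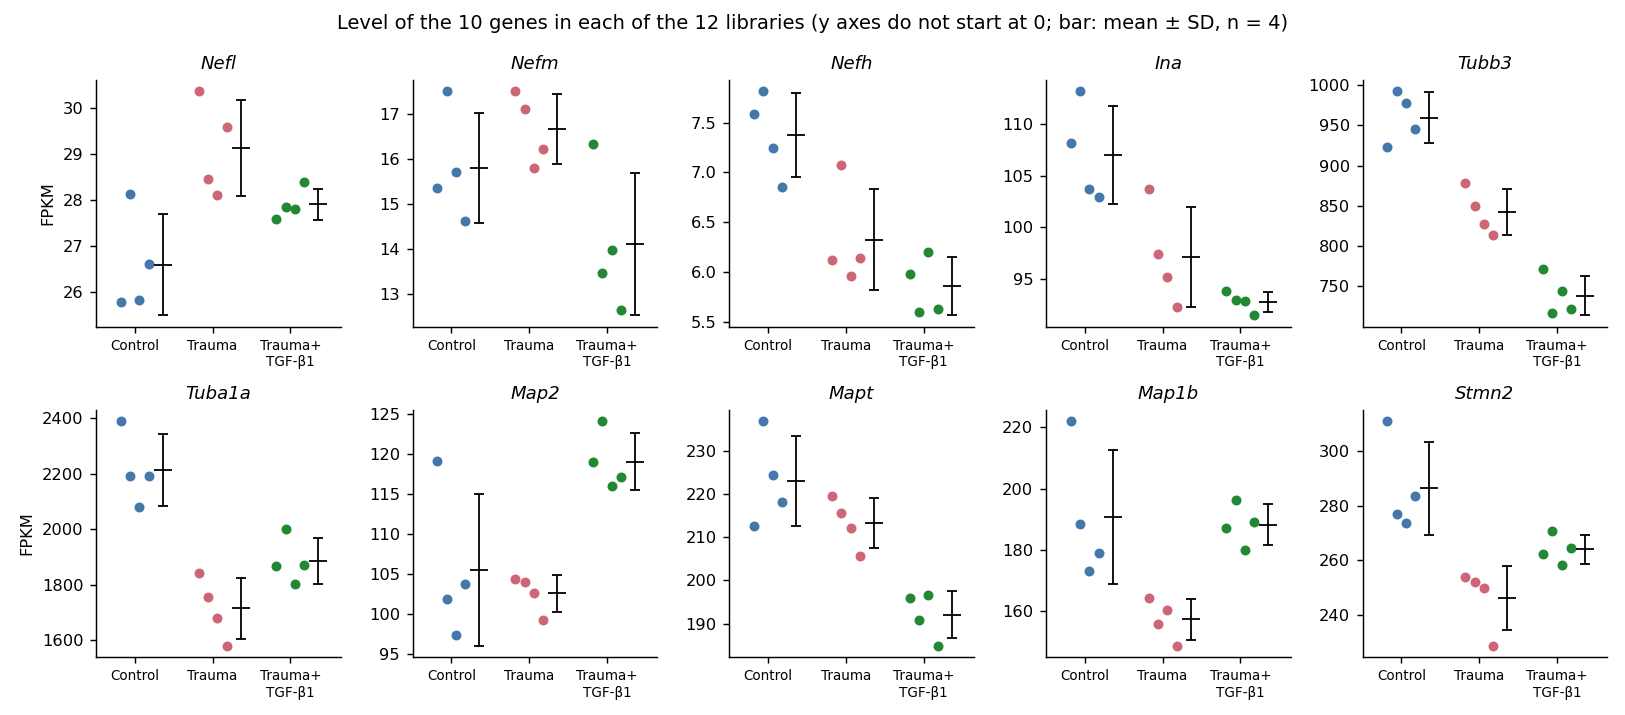
Level in FPKM (y axis, not starting at 0) of each of the 10 genes in the 4 libraries of Control, Trauma and Trauma+TGF-β1 (points, replicates 1 to 4 from left to right), with mean ± SD beside them. Tubb3 steps down from group to group without overlap, Map1b dips in Trauma, and Map2 is high in the 4 Trauma+TGF-β1 libraries and in 1 Control library.

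Differences were tested as log2(FPKM + 0.1) with limma across the 15016 genes with a mean of at least 0.5 FPKM, and a gene was called where the adjusted p (Benjamini-Hochberg) did not exceed 0.05. After scratch injury, 4 of the 10 members were downregulated and none was upregulated, against 6.00% of all genes tested in either direction, 2.70% lower and 3.30% higher. At an unadjusted p under 0.05, 1 member (Nefl) was higher and 6 were lower, and limma-voom on the reads called 0 higher and 5 lower. Addition of TGF-β1 to scratched cultures, set against Trauma alone, gave 2 upregulated and 2 downregulated members, against 12.1% of all genes (4.40% higher, 7.71% lower). Trauma+TGF-β1 set against Control gave 1 upregulated and 5 downregulated members, against 16.6% of all genes (6.14% higher, 10.4% lower). The median log2 difference of the 10 members was -0.16, -0.063 and -0.18 in these comparisons, beside -0.012, 0.0025 and -0.0090 for all genes tested. Of the 12 pan-neuronal markers, 0 were higher and 4 lower after scratch, and 1 higher and 2 lower between the scratched groups. For the treated cultures against Control 0 were higher and 6 lower. The medians of these markers were -0.10, -0.0057 and -0.15. The comparisons share libraries: Trauma stands in the first and the second, and Control in the first and the third. All member differences were small, from -0.38 to 0.26 on the log2 scale, where the median size of a called difference among all genes was 0.38, 0.29 and 0.32.

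**Figure D2:**
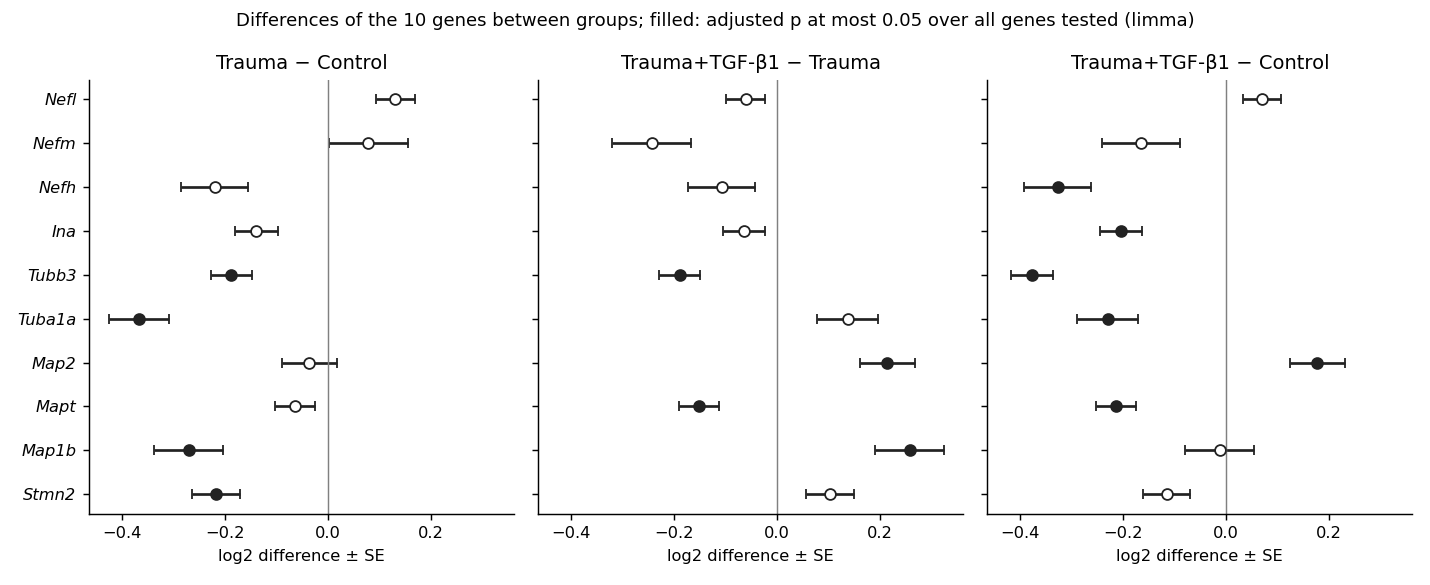
Log2 difference of each of the 10 genes (x axis, with its standard error) in the 3 comparisons, where filled points mark an adjusted p of at most 0.05. Trauma − Control holds 4 filled points, all below 0. Trauma+TGF-β1 − Trauma holds Map2 and Map1b above 0 and Tubb3 and Mapt below. In Trauma+TGF-β1 − Control only Map2 is filled above 0.

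Among the neurofilament genes, none passed the test after scratch injury, and the heavy chain and α-internexin were lower in Trauma+TGF-β1 than in Control. Nefh (chr11:4938754-4948064, minus strand), which encodes the heavy chain of mature axons, read 7.58, 7.82, 7.25 and 6.85 FPKM in the Control libraries 1 to 4, 6.12, 7.07, 5.96 and 6.14 in Trauma, and 5.98, 5.60, 6.20 and 5.63 in the treated cultures. Every Trauma+TGF-β1 library was below every Control library, while Trauma overlapped both. Nefh fell by 0.33 ± 0.065 (log2, SE) from Control to Trauma+TGF-β1 (adjusted p = 0.0066). Its difference from Control to Trauma was -0.22 ± 0.065 (adjusted p = 0.072). That value passed the test when Trauma 2, the highest Trauma library, was left out (-0.27, adjusted p = 0.033).

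Ina (chr19:47014698-47025327, plus strand), which encodes α-internexin, read 108, 113, 104 and 103 FPKM in Control, 104, 97.4, 95.2 and 92.3 in Trauma, and 93.8, 93.0, 92.9 and 91.5 in the treated cultures. Trauma+TGF-β1 and Control did not overlap, and Trauma 1 alone reached the Control range. From Control to Trauma+TGF-β1 Ina fell by 0.20 ± 0.041 (adjusted p = 0.0067), and its difference from Control to Trauma was -0.14 ± 0.041 (adjusted p = 0.071, and 0.032 without Trauma 1). Neither Nefh nor Ina differed past the threshold between Trauma+TGF-β1 and Trauma (-0.11 ± 0.065 and -0.065 ± 0.041). Their differences between Trauma+TGF-β1 and Control stayed past the threshold with each of the 12 libraries left out in turn. They were lost after the GC correction described below (adjusted p = 0.090 for Nefh and 0.11 for Ina) and under pan-neuronal scaling (adjusted p = 0.055 and 0.14), and Ina was also lost under quantile normalization (adjusted p = 0.080).

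The light and medium chain genes took another course. Nefl (chr14:68083863-68089095, plus strand), whose product is measured in blood as a sign of axonal damage, read 25.8, 28.1, 25.8 and 26.6 FPKM in Control, 30.4, 28.5, 28.1 and 29.6 in Trauma, and 27.6, 27.8, 27.8 and 28.4 in the treated cultures. Trauma 1, 2 and 4 were above every other library, and Trauma 3 lay just below Control 2. The difference of 0.13 ± 0.038 did not pass the test (adjusted p = 0.0655). It did without Control 2 (0.16, adjusted p = 0.032). Nefl also passed when libraries were scaled to their total of reads (0.17, adjusted p = 0.017), to the pan-neuronal markers (0.23, adjusted p = 0.0038) or by quantiles (0.16, adjusted p = 0.027). Nefm (chr14:68082590-68124846, minus strand) read 15.4, 17.5, 15.7 and 14.6 FPKM in Control, 17.5, 17.1, 15.8 and 16.2 in Trauma, and 16.3, 13.5, 14.0 and 12.7 in the treated cultures. The 4 treated libraries were the most scattered, with Trauma+TGF-β1 1 among the Trauma values and the other 3 below every other library. The difference of Trauma+TGF-β1 from Trauma was -0.24 ± 0.077 (adjusted p = 0.058), and it passed without Trauma+TGF-β1 1 (-0.32, adjusted p = 0.017) or without Control 2 (adjusted p = 0.048). Without Trauma+TGF-β1 1, Nefm also passed against Control (-0.24, adjusted p = 0.035).

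The make-up of the neurofilament set, a measure within each library that does not depend on scaling between libraries, differed between the groups. The share of Ina in the summed FPKM of the 4 genes was 67.9% to 68.9% in Control, 64.0% to 65.8% in Trauma and 65.3% to 66.5% in the treated cultures. Nefl held 16.4% to 17.6%, 19.0% to 20.5% and 19.2% to 20.5%. The ratio of Nefl to Nefh was 3.40 to 3.88 in Control, 4.02 to 4.96 in Trauma and 4.48 to 5.04 in the treated cultures. On all 3 measures both scratched groups lay wholly outside the Control range and overlapped each other. These ratios are descriptions, with no test, and their size depends on the gene lengths used. Nefl shares with Nefm the overlapping stretch described above.

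Of 10 other intermediate filament and lamin genes, 8 were tested, and Vim, Gfap and Nes were higher in the scratched groups while Synm was lower. After scratch 3 were upregulated and 1 downregulated, as were 3 and 1 in the treated cultures against Control, and none passed between the scratched groups, where 4 had an unadjusted p under 0.05 and limma-voom called 2. Vim, which encodes vimentin, rose by 1.33 ± 0.060 after scratch (adjusted p = 6.8e-07) and Gfap, the filament of astrocytes, by 0.86 ± 0.096 (adjusted p = 0.00034). Nes, the filament of neural progenitors, rose by 0.48 ± 0.083, and Synm, which encodes synemin, fell by 0.24 ± 0.057. Vim, Gfap, Nes and Synm were also called in the treated cultures against Control, at 1.14, 1.03, 0.45 and -0.31. The ratio of Vim to Ina was 0.219 to 0.239 in Control, 0.556 to 0.713 in Trauma and 0.529 to 0.614 in the treated cultures.

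Both tubulin members were lower in the scratched groups than in Control. Tubb3 (chr8:123411424-123422015, plus strand) read 923, 993, 978 and 945 FPKM in Control, 879, 849.8, 828 and 813 in Trauma, and 771, 717, 744 and 722 in the treated cultures. The 3 groups did not overlap, with Control highest and Trauma+TGF-β1 lowest. Tubb3 fell by 0.19 ± 0.040 after scratch (12.2% lower, adjusted p = 0.017) and by a further 0.19 ± 0.040 with TGF-β1 (adjusted p = 0.015), which made 0.38 ± 0.040 from Control to Trauma+TGF-β1 (23.0% lower, adjusted p = 0.00017). The last of these held with each library left out. The first missed the threshold without Control 3, Trauma 3 or Trauma 4 (adjusted p = 0.051, 0.055 and 0.064), and the second without Trauma+TGF-β1 2 (adjusted p = 0.052). The first was also lost in the fit of the 2 groups alone, with no filter on low values, under quantile normalization and under pan-neuronal scaling (adjusted p from 0.065 to 0.32). The second was also lost after the GC correction described below (-0.030, adjusted p = 0.75) and turned to 0.016 under quantile normalization.

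Tuba1a (chr15:98949837-98953703, minus strand) read 2388, 2192, 2078 and 2189.9 FPKM in Control, 1841, 1756, 1681 and 1581 in Trauma, and 1867, 2000.4, 1802 and 1869.7 in the treated cultures. All 8 scratched libraries were below the lowest Control library, and Trauma+TGF-β1 overlapped the upper end of Trauma. Tuba1a fell by 0.37 ± 0.059 after scratch (22.5% lower, adjusted p = 0.0036), the largest difference of the 10 members in that comparison, and the call held with each library left out. Its difference between Trauma+TGF-β1 and Trauma was 0.14 ± 0.059 (adjusted p = 0.15). From Control to Trauma+TGF-β1 it fell by 0.23 ± 0.059 (adjusted p = 0.021), a call that was lost without Trauma+TGF-β1 3 or Trauma+TGF-β1 4 (adjusted p = 0.053 and 0.052). The call was also lost after the GC correction (adjusted p = 0.088) and the length correction (adjusted p = 0.098). No filter on low values (adjusted p = 0.15) and pan-neuronal scaling (adjusted p = 0.21) lost it as well.

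Of the 18 other tubulin genes 13 were tested. In Trauma against Control, 4 were downregulated: Tuba4a (-0.27 ± 0.059), Tuba1b (-0.26 ± 0.066), Tubb5 (-0.21 ± 0.044) and Tubb4a (-0.16 ± 0.037). The exception in direction was Tubb6, a β-tubulin of non-neuronal cells, which was upregulated by 0.64 ± 0.11 (adjusted p = 0.0047) from a low level of 4.10 to 6.49 FPKM. With TGF-β1 added, Tubb2b fell by 0.20 ± 0.044 and Tubb4b by 0.11 ± 0.029, while Tuba1c rose by 0.38 ± 0.0996 (adjusted p = 0.029). After the GC correction described below both falls were lost (-0.15 for Tubb2b, adjusted p = 0.072, and -0.00029 for Tubb4b, adjusted p = 0.998) and Tuba1c passed, and with no filter on low values none of these 3 passed. For the treated cultures against Control, 6 of the 13 were downregulated, with Tubb2b at -0.26, Tubg2 at -0.23 and Tubb4a at -0.22, and Tubb6 was again upregulated (0.62 ± 0.11). Against Control 3 tubulin genes were lower with the GC correction and 3 with no filter, and Tubb6 passed in both. Tubb2b passed with the GC correction, and Tubg2 and Tubb4a did not (adjusted p = 0.18 and 0.10). The median log2 difference of the 13 genes was -0.078, -0.0070 and -0.15 in the 3 comparisons.

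**Figure D3:**
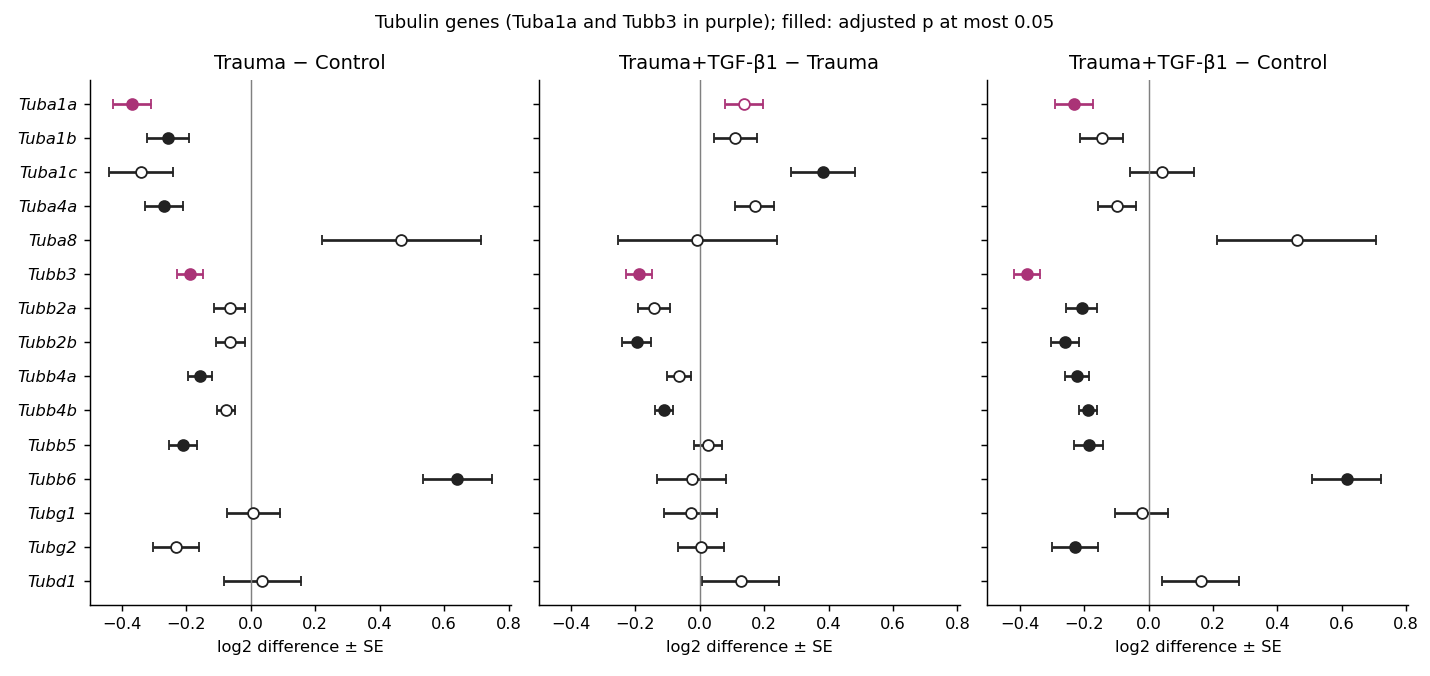
Log2 difference (x axis, with its standard error) of Tuba1a and Tubb3 (purple) and of the 13 other tubulin genes tested, in the 3 comparisons, with filled points for an adjusted p of at most 0.05. The neuronal α- and β-tubulins lie below 0 in Trauma − Control, where Tubb6 lies at 0.64. In Trauma+TGF-β1 − Trauma, Tuba1c is filled above 0 and Tubb3, Tubb2b and Tubb4b below.

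Summed over its measured genes, α-tubulin reached 2453 to 2821 FPKM in Control, 1879.9 to 2185 in Trauma and 2156 to 2378 in the treated cultures, and β-tubulin 3362 to 3655, 3085 to 3265 and 2853 to 2999.9. The ratio of the α sum to the β sum was 0.700 to 0.839 in Control, 0.609 to 0.669 in Trauma and 0.740 to 0.826 in the treated cultures. Trauma was thus below both other groups without overlap. Trauma+TGF-β1 lay within the Control range, whose upper end was Control 1 alone (0.839, with Control 2 to 4 at 0.704, 0.700 and 0.763). Of the treated libraries, Trauma+TGF-β1 2 and 4 (0.826 and 0.780) were above Control 2 to 4. The ratio of Tuba1a to Tubb3 was likewise lowest in Trauma and overlapped between the other groups, at 2.13 to 2.59, 1.94 to 2.0954 and 2.42 to 2.79. That overlap came from Control 1 alone (2.59), as Control 2 to 4 read 2.21, 2.13 and 2.32. Tubb3 also lost share within β-tubulin, with 27.2% to 28.0% in Control, 26.2% to 26.9% in Trauma and 24.9% to 25.8% in the treated cultures, none of which overlapped. The α-tubulin sum rests on genes that share reads, as described above. The shares and ratios were not corrected for GC content. After that correction, described below, Tubb3 stood at -0.030 between the scratched groups (adjusted p = 0.75, limma).

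The microtubule-associated protein genes split in their response to TGF-β1. Map1b (chr13:99421446-99516540, minus strand) read 222, 189, 173 and 179 FPKM in Control, 164, 156, 160.3 and 149 in Trauma, and 187, 196, 180.2 and 189 in the treated cultures. Trauma lay below every library of both other groups, and Trauma+TGF-β1 lay inside the Control range, whose upper end was Control 1 alone (222). Map1b fell by 0.27 ± 0.067 after scratch (17.1% lower, adjusted p = 0.035) and rose by 0.26 ± 0.067 with TGF-β1 (19.6% higher, adjusted p = 0.029). Between Trauma+TGF-β1 and Control the difference was -0.013 ± 0.067 (adjusted p = 0.92), which turned to 0.063 without Control 1, the highest library, and to 0.0083 without Trauma+TGF-β1 3. Both calls were near the threshold: the fall was lost without Control 2, Trauma 2, Trauma 3, Trauma 4, Trauma+TGF-β1 1 or Trauma+TGF-β1 4 (adjusted p from 0.0501 to 0.11), and the rise without Trauma 2, Trauma 3, Trauma 4, Trauma+TGF-β1 1, Trauma+TGF-β1 2 or Trauma+TGF-β1 4 (adjusted p from 0.051 to 0.085). Without Control 1 the spread narrowed and both were called, at -0.20 ± 0.044 (adjusted p = 0.027) and 0.26 ± 0.041 (adjusted p = 0.0028). The fall was also lost in the fit of the 2 groups alone, with no filter on low values and without the eBayes trend. Quantile normalization and scaling to total reads or to the pan-neuronal markers lost it too (adjusted p from 0.056 to 0.17 over these fits).

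Map2 (chr1:66175273-66442583, plus strand), the gene of the dendritic MAP2, read 119, 102, 97.4 and 104 FPKM in Control, 104, 104, 103 and 99.3 in Trauma, and 119, 124, 116 and 117 in the treated cultures. The treated libraries were above every Trauma library and above 3 of the 4 Control libraries. No change after scratch passed the test (-0.037 ± 0.053, adjusted p = 0.77, and 0.023 without Control 1). Map2 rose by 0.21 ± 0.053 in Trauma+TGF-β1 against Trauma (adjusted p = 0.025) and by 0.18 ± 0.053 against Control (adjusted p = 0.041). The first call was lost without Trauma+TGF-β1 2, Trauma+TGF-β1 4 or any single Trauma library (adjusted p from 0.0505 to 0.077). The second was lost in 11 of the 12 leave-one-out fits (adjusted p from 0.0506 to 0.11) and held only without Control 1 (0.24 ± 0.035, adjusted p = 0.00093).

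Mapt (chr11:104231390-104332090, plus strand), the gene of the axonal protein tau, read 213, 237, 224 and 218 FPKM in Control, 219.5, 216, 212 and 206 in Trauma, and 196, 191, 197 and 185 in the treated cultures. The treated libraries were below all others. After scratch the difference was -0.064 ± 0.039 (adjusted p = 0.41). Mapt fell by 0.15 ± 0.039 in Trauma+TGF-β1 against Trauma (9.95% lower, adjusted p = 0.028) and by 0.21 ± 0.039 against Control (13.8% lower, adjusted p = 0.0040). The fall against Control held with each library left out, and the fall against Trauma did not hold without Trauma 1, Trauma 2, Trauma 3, Trauma+TGF-β1 2 or Trauma+TGF-β1 4 (adjusted p from 0.055 to 0.084). The differences of Map1b, Map2 and Mapt between the scratched groups, and that of Map2 against Control, were also lost after the GC correction described below and with no filter on low values.

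Map2 and Mapt, which overlapped between Control and Trauma, moved in opposite directions in the treated libraries. Their ratio was 0.430 to 0.560 in Control, 0.476 to 0.484 in Trauma and 0.590 to 0.651 in the treated cultures, where every treated library was above every other one. Map1b against Mapt gave 0.772 to 1.04, 0.723 to 0.756 and 0.917 to 1.03. Control reached the treated values of this ratio only in Control 1 (1.04), with Control 2 to 4 at 0.796, 0.772 and 0.821. The ratio of Map2 to Map1b was higher in both scratched groups, which overlapped, than in every Control library, at 0.537 to 0.5797 in Control, 0.635 to 0.667 in Trauma and 0.619 to 0.644 in the treated cultures. Map2 and Map1b are the longest members and Mapt is rich in G and C, which is taken up again below.

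**Figure D4:**
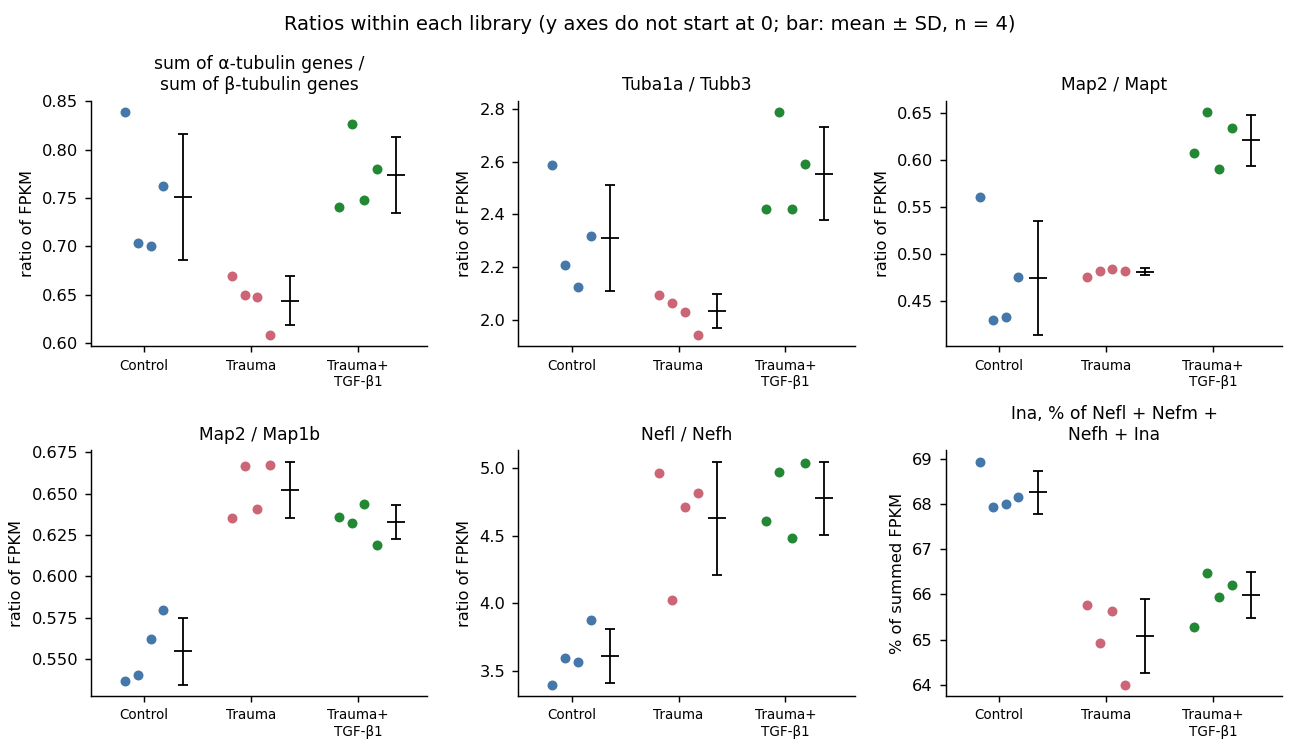
Ratios of FPKM (y axes, not starting at 0) within each library of the 3 groups, with mean ± SD (n = 4). The α- to β-tubulin and Tuba1a to Tubb3 ratios are lowest in Trauma, the Map2 to Mapt ratio is highest in Trauma+TGF-β1, and Map2 to Map1b, Nefl to Nefh and the share of Ina separate Control from both scratched groups.

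Among 29 other microtubule-associated protein genes, 28 were tested. The shares of all genes called in the 3 comparisons were 6.00%, 12.1% and 16.6%. After scratch 2 were downregulated, Map6d1 (-0.29 ± 0.068) and Map6 (-0.15 ± 0.041), which encodes a protein that makes microtubules resist cold. With TGF-β1 against Trauma, Camsap2, whose product caps minus ends, rose by 0.12 ± 0.034, and Map7d1 (-0.32 ± 0.076), Mtcl1 (-0.25 ± 0.071) and Map1s (-0.20 ± 0.050) fell. Against Control, 3 rose in Trauma+TGF-β1 (Tpx2 at 0.48, Clasp2 at 0.19 and Dclk1 at 0.13) and 6 fell, led by Mtcl1 (-0.41), Map7d1 (-0.32) and Map1s (-0.27). The median of the 28 was -0.041, 0.032 and -0.012, beside -0.012, 0.0025 and -0.0090 for all genes tested. With the GC correction described below, 1 gene rose and none fell against Trauma (1 of 28 lower at an unadjusted p under 0.05). Against Control 1 fell (Mtcl1) and none rose.

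Of 15 genes for kinases of tau and neurofilaments and their activators, none passed after scratch with limma, where 4 had an unadjusted p under 0.05 and limma-voom called 0. Adding TGF-β1 to scratched cultures gave 1 upregulated gene, Gsk3b (0.15 ± 0.041), and 4 were downregulated, led by Cdk5r2 (-0.43 ± 0.097), an activator of CDK5, Ttbk1 (-0.27 ± 0.055) and Gsk3a (-0.27 ± 0.078). Against Control 6 were downregulated, among them Cdk5r2 (-0.42), Cdk5 (-0.38 ± 0.049, adjusted p = 0.00059) and Gsk3a (-0.36). After the GC correction described below the counts were 2 lower after scratch, 0 with TGF-β1 against Trauma (3 at an unadjusted p under 0.05) and 4 lower against Control. Against Control Cdk5 and Gsk3a then passed, and Cdk5r2 did not (-0.16, adjusted p = 0.075).

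Stmn2 (chr3:8509360-8561606, plus strand), a stathmin of growing axons, read 311, 277, 274 and 283 FPKM in Control, 254, 252, 249.7 and 229 in Trauma, and 262, 271, 258 and 265 in the treated cultures. The 3 groups did not overlap, with Trauma lowest and Trauma+TGF-β1 between Trauma and Control. Stmn2 fell by 0.22 ± 0.046 after scratch (14.0% lower, adjusted p = 0.017), a call that was lost in 1 of the 12 leave-one-out fits, that without Trauma 4, the lowest library (-0.18, adjusted p = 0.052). It was also lost in the fit of the 2 groups alone, with no filter on low values, under quantile normalization and under pan-neuronal scaling (adjusted p from 0.052 to 0.21). The differences of Trauma+TGF-β1 from Trauma (0.10 ± 0.046, adjusted p = 0.17) and from Control (-0.12 ± 0.046, adjusted p = 0.11) did not pass the test although the ranges were apart. Counted by ranges alone, 4 members, all lower, did not overlap in Trauma against Control (12.9% of all genes, 6.25% higher and 6.69% lower). Between the scratched groups 5 did not, 3 higher and 2 lower with TGF-β1 (22.2% of all genes, 10.2% higher and 12.0% lower). For the treated cultures against Control 6 did not, all lower (18.5% of all genes, 7.94% higher and 10.6% lower).

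Of the 8 other stathmin and collapsin response mediator genes, 1 rose and 1 fell after scratch. Stmn4 was upregulated after scratch (0.25 ± 0.051, adjusted p = 0.014) and Crmp1 downregulated (-0.24 ± 0.035, adjusted p = 0.0018). Relative to Trauma, Stmn3 fell in the treated cultures by 0.29 ± 0.046 and Stmn1 by 0.22 ± 0.061. Against Control 1 rose (Stmn4, 0.19) and 4 fell, led by Stmn1 (-0.40), Stmn3 (-0.39) and Crmp1 (-0.23). The GC correction left Stmn1 past the threshold against Trauma, with Stmn3 at -0.14 (adjusted p = 0.062), and gave 3 lower after scratch.

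Of 30 genes for tubulin folding, modification and severing, 26 were tested. After scratch 1 passed, Ttl, which encodes the ligase that puts tyrosine back on α-tubulin (-0.22 ± 0.046). With TGF-β1 against Trauma 1 rose, Agtpbp1 (0.18 ± 0.047), a remover of glutamate from tubulin, and 4 fell, led by the folding cofactors Tbcc (-0.71 ± 0.16) and Tbca (-0.28 ± 0.066) and the polyglutamylase subunit Tpgs1 (-0.52 ± 0.10). Against Control 8 fell and none rose (0 higher at an unadjusted p under 0.05 or with limma-voom), with Tpgs1 (-0.38), Vash2 (-0.35) and Svbp (-0.32) in the lead; the last pair encode the enzyme that removes tyrosine and its partner. With the GC correction described below the counts were 4 lower after scratch, 0 higher and 3 lower against Trauma, where Agtpbp1 stood at 0.10 (adjusted p = 0.15), and 5 lower against Control. The rise of Agtpbp1 was also lost with no filter on low values (adjusted p = 0.053). Against Control Vash2 and Svbp passed with the GC correction, and Tpgs1 did not (-0.14, adjusted p = 0.15).

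The members differ widely in length and base composition, and the differences of the treated cultures from Trauma and from Control moved with both across all genes. The Spearman correlation of the log2 difference between Trauma+TGF-β1 and Trauma with transcript GC content was -0.479 over 14699 genes, and with gene length 0.217 over 15016 genes. For Trauma+TGF-β1 against Control the values were -0.370 and 0.152, and after scratch 0.0896 and -0.0891. Map2 (16449 bases of exon, 44.0% GC) and Map1b (15846 bases, 48.3% GC), which rose, are longer than 98% of the genes tested (percentiles 98.2 and 98.0), and Tubb3 (58.0% GC) and Mapt (55.4% GC), which fell, lie at the 90.2 and 78.8 percentiles of GC. Genes were not independent here, and no p is given.

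After each library was corrected for its trend with GC content, no member passed in Trauma+TGF-β1 against Trauma, and 3 had an unadjusted p under 0.05, all higher. Map1b kept most of its difference (0.23, adjusted p = 0.0595), Map2 stood at 0.12 (adjusted p = 0.16), Mapt at -0.040 (adjusted p = 0.59) and Tubb3 at -0.030 (adjusted p = 0.75). A correction for gene length left Mapt alone (-0.20), with Map1b at 0.14 (adjusted p = 0.14), Map2 at 0.092 (adjusted p = 0.17) and Tubb3 at -0.10 (adjusted p = 0.11). In Trauma against Control the falls of Tubb3, Tuba1a, Map1b and Stmn2 passed under both corrections, and those of Nefh and Ina then passed too, which made 6 of 10. For the treated cultures against Control, Tubb3 (-0.26) and Mapt (-0.15) passed after the GC correction and Stmn2 came to pass (-0.22, adjusted p = 0.0043), while Nefh, Ina, Tuba1a and Map2 did not.

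**Figure D5:**
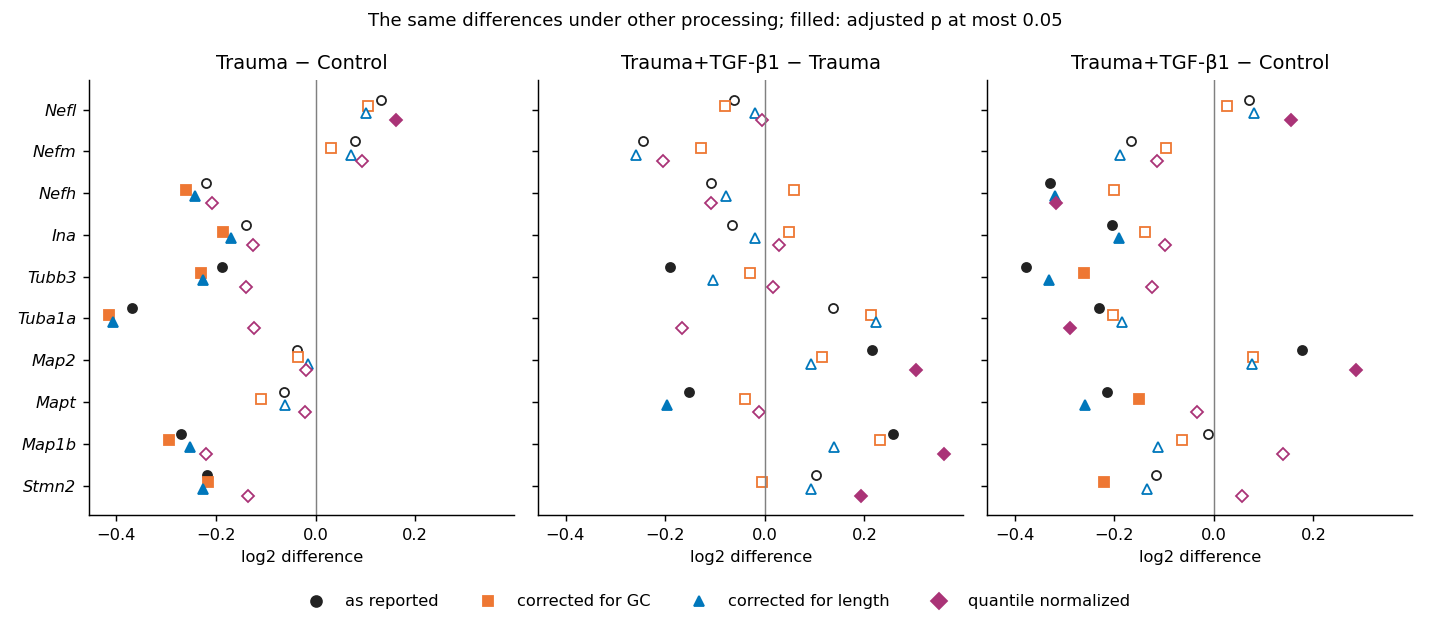
Log2 difference (x axis) of each of the 10 genes in the 3 comparisons as reported and after correction for transcript GC content, correction for gene length, or quantile normalization, with filled symbols for an adjusted p of at most 0.05. The squares (GC) in the middle panel are all open, whereas the left panel holds 6 filled squares.

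Of the 14 calls among the members, those that passed under most alternatives were the fall of Tuba1a after scratch and the fall of Tubb3 from Control to Trauma+TGF-β1, each of which passed under 14 of 15 other ways of processing and in 12 of 12 leave-one-out fits. The fall of Mapt from Control to Trauma+TGF-β1 passed under 13 of 15, and those of Nefh and Ina under 12 of 15, also with each library left out. The exception for Tuba1a and Tubb3 was quantile normalization (-0.12 for both, adjusted p = 0.31 and 0.27).

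The genes whose profiles over the 12 libraries were most like those of the members were found among 7087 named protein-coding genes with a mean of at least 5 FPKM, by Pearson correlation of log2 values. The libraries fall into 3 groups, and genes share each library's depth and base composition trend, so these values are descriptions. The mean profile of the 4 neurofilament genes was most like Poldip3 (r = 0.982), Cmas (0.965) and Ydjc (0.951). The tubulin pair was most like Olfm2 (0.9798), Slc7a3 (0.974) and Ssx2ip (0.9699), and the mean of Map2, Mapt, Map1b and Stmn2 most like Rtn3 (0.974), Cntn1 (0.971) and Nwd2 (0.964). The last 3 had the dip of Map1b in Trauma, as with Rtn3 at 248, 213 and 243 FPKM in the group means.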

How the data were processed

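Gene expression of 12 libraries (4 each of Control, Trauma and Trauma+TGF-β1) was taken from 1 deposited table of FPKM. The authors prepared polyA RNA libraries, sequenced paired ends of 150 bp, aligned them with HISAT2 2.0.5 (mm10 and CASAVA are named in the submitters' processing notes), counted reads per gene and computed FPKM from gene length and mapped reads. The gene lengths in base pairs stand in a column that the authors deposited beside them. FPKM multiplied by length came out as whole multiples of 1 step per library (tolerance 0.01) for 100% of genes, which gave the reads per gene, and the values already carried median-of-ratios size factors.

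log2(FPKM + 0.1) was computed from the deposited FPKM and tested by moderated linear models (limma 3.58.1 under R 4.3.3, empirical Bayes moderation with a mean trend), as 1 fit of the 12 libraries without a block, over genes with a mean of at least 0.5 FPKM, with Benjamini-Hochberg adjustment within a comparison. The procedure was tested on simulated data. The members and the gene lists were chosen with earlier results of these data known, and no list was tested as a set. Some items are not reported here. The text names the members, and from every other list up to 3 genes per direction with the largest called difference and at least 1 FPKM, others being named after their values were seen. Alternatives were other pseudocounts (1 and 0.01), filters, scalings, corrections for length and GC, a replicate block, voom on the recovered reads and each library left out, and 2 scalings (total reads, pan-neuronal markers) were added after seeing the data. Sequences and exons came from GENCODE M21 (GRCm38), whose coordinates matched those of the table for the 10 members. Python 3.11.15, pandas 2.3.3 and numpy 2.4.6 were used.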

Additional observations from a re-analysis of the deposited data

Results flagged for a closer look

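In 2 of 30 groups (10 members in 3 groups of 4 libraries) 1 library lay far from the others by Dixon's criterion, and chance alone flags about 1 group in 20. Nefh in Trauma was highest in Trauma 2, at 7.07 FPKM against 5.96 to 6.14 in the other 3 libraries. Stmn2 in Trauma was lowest in Trauma 4, at 229 FPKM against 249.7 to 254. Without Trauma 2 the difference of Nefh between Trauma and Control was -0.27 (adjusted p = 0.033), and without Trauma 4 that of Stmn2 was -0.18 (adjusted p = 0.052, limma).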

How the results depend on the processing

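The counts of members past the threshold were 4 after scratch, 4 between the scratched groups and 6 for the treated cultures against Control. In Trauma against Control the count was 7 with the GC correction and replicate block, 1 in the fit of only the 2 groups compared and 1 with no filter on low values. It was 1 under quantile normalization (Nefl, higher) and 2 under scaling to pan-neuronal markers. Between the scratched groups it was 0 with the GC correction (3 at an unadjusted p under 0.05) and 1 with the replicate block added, 1 without the eBayes trend, 1 with the length correction, also with the block, and 0 with no filter (5 at an unadjusted p under 0.05). For the treated cultures against Control it was 3 with the GC correction and 3 with pan-neuronal scaling. The FPKM without further scaling were equal to the values reported and are not counted as an alternative. With 1 library left out the counts ranged from 1 to 5, from 0 to 5 and from 4 to 6. The count after scratch was 1 (Tuba1a) without Trauma 4 and 2 without Trauma 3. Between the scratched groups it was 0 without Trauma+TGF-β1 2, 1 without Trauma+TGF-β1 4, Trauma 2 or Trauma 3, and 2 without Trauma 1 or Trauma 4. The cause was not tested, except that fewer libraries or more genes entered the fits without a library or without a filter.

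Directions turned as follows, none of them in a call that passed both ways. With the GC correction (with and without the block) Trauma+TGF-β1 against Trauma became 0.059 for Nefh, 0.048 for Ina, -0.0047 for Stmn2 and 0.036 for Map1s, and with the length correction -0.067 for Dst. Quantile normalization gave 0.028 for Ina, 0.016 for Tubb3 and -0.17 for Tuba1a in that comparison, and 0.14 for Map1b and 0.057 for Stmn2 against Control. Pan-neuronal scaling, which moved the median of all genes upward by 0.098 after scratch and by 0.12 against Control, gave 0.064 for Map2 and 0.037 for Mapt after scratch, and 0.11 for Map1b, 0.0086 for Stmn2 and 0.011 for Add2 in Trauma+TGF-β1 against Control. Scaling to total reads gave 0.0053 for Map2 and 0.029 for Map1b in the same 2 comparisons. With 1 library left out, Map2 after scratch ranged from -0.074 to 0.023 (above 0 only without Control 1), and Map1b in the treated cultures against Control from -0.057 to 0.063 (above 0 without Control 1, and 0.0083 without Trauma+TGF-β1 3).

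Over all genes, 901, 1819 and 2487 were called. The fit of 2 groups called 518 after scratch and 1601 in Trauma+TGF-β1 against Control, and no filter 575, 987 and 1692. Between the scratched groups the GC correction called 753 (650 with the block, which also gave 1360 after scratch) and the length correction 876 with the block. Leaving out 1 library gave 489 (without Trauma 4) to 875, 651 (without Trauma+TGF-β1 2) to 2539 (without Control 1) and 1488 (without Control 3) to 3389 (without Control 1). Past 1.5 times the count as reported were also 561 without Trauma 2 and 583 without Trauma 3 after scratch, 1021, 794 and 861 without Trauma 1, 2 and 4 and 802 without Trauma+TGF-β1 4 between the scratched groups, and 1538 and 1505 without Control 2 and Trauma+TGF-β1 2 against Control. The share of higher calls, 55.0%, 36.3% and 37.1%, was 62.4%, 54.8% and 55.3% under quantile normalization, 74.6%, 37.9% and 55.0% with total reads, 91.3%, 42.8% and 84.7% with pan-neuronal scaling, and 38.0% after scratch with the GC correction.

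Same-numbered libraries correlated at -0.0088 to 0.076 over 12 pairs, below the threshold of 0.1 set for pairing by replicate number. Differently numbered libraries of different groups correlated at -0.091 to 0.073, and not every library correlated best with its own number. Pairing weaker than that threshold was not tested. With the replicate block the member counts were again 4, 4 and 6, of 786, 1517 and 2267 genes. Counting error weighed most on Nefh, with 349 to 531 reads per library.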

Other observations

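Of 21 genes of the actin core, the filament system that partners microtubules at growing tips, none passed after scratch with limma, where 5 had an unadjusted p under 0.05 and limma-voom called 2. In Trauma+TGF-β1 against Trauma 2 rose, Dstn (0.21 ± 0.043), which encodes an actin-severing protein, and Tmod2 (0.14 ± 0.041), and 3 fell: Pfn1 (-0.40 ± 0.078), the gene of the monomer-binding profilin, Gsn (-0.32 ± 0.085) and Cfl1 (-0.28 ± 0.049). Against Control Actb rose (0.10 ± 0.030), and Cfl1 (-0.29) and Dbn1 (-0.21), the gene of the dendritic spine protein drebrin, fell. Tmod2 and Gsn were lost with the GC correction (adjusted p = 0.32 and 0.16) and with no filter on low values (adjusted p = 0.11 and 0.065). Dbn1 was lost with the GC correction (-0.068, adjusted p = 0.16) and Actb with no filter (adjusted p = 0.21). Dstn, Pfn1 and Cfl1 passed in both.

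Of 14 genes of the membrane skeleton and its linkers, 1 passed after scratch, Epb41l1 (-0.14 ± 0.027). In Trauma+TGF-β1 against Trauma Ank3, the organizer of the axon initial segment, rose by 0.20 ± 0.045 and Dst, a linker of filament systems, by 0.13 ± 0.035. Ank3 was also above Control (0.14 ± 0.045, adjusted p = 0.048), a call that was lost with the GC correction (0.11, adjusted p = 0.12) and with no filter on low values (adjusted p = 0.089). The rise of Dst was lost in both as well (adjusted p = 0.062 and 0.053), and that of Ank3 against Trauma passed in both. Against Control Epb41l1 (-0.13 ± 0.027) and Add2 (-0.11 ± 0.035) fell. Both falls were lost with the GC correction (adjusted p = 0.17 and 0.46), and with no filter Epb41l1 passed and Add2 did not (adjusted p = 0.083).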
